A study of Mus musculus with 10 samples.

Results

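The 27 Hox genes measured in embryonic mouse hearts are described here by cluster and by paralogue number. They are the protein-coding rows of the deposited comparison whose name is *Hox* with a cluster letter from a to d and a number, and they make up 27 of 16973 protein-coding genes and of 23195 genes in all. The *Hoxa* cluster on chromosome 6 has 8 of them, the *Hoxb* cluster on chromosome 11 has 9, the *Hoxc* cluster on chromosome 15 has 5 and the *Hoxd* cluster on chromosome 2 has 5. GENCODE release M21 annotates 39 protein-coding Hox genes on GRCm38, and the other 12 (*Hoxa6*, *Hoxa11*, *Hoxa13*, *Hoxb13*, *Hoxc8*, *Hoxc10* to *Hoxc12* and *Hoxd10* to *Hoxd13*) have no row in the table analysed here. Of these 12, 10 have a paralogue number of 9 or higher. PolyA RNA was sequenced from hearts of male C57BL6/J embryos at embryonic day 13.5, 5 wild type and 5 *Nos1ap* null, with 1 library per male. The null embryos are homozygous for *Nos1ap* tm1d, a constitutive allele without exon 4, so the deletion is in every tissue and not in the heart alone. *Nos1ap* encodes an adaptor protein of neuronal nitric oxide synthase, and the libraries were made to ask which transcripts change in the heart when it is lost. The wider study concerned the electrocardiogram. No treatment was given to any embryo, and genotype is the only difference between the groups that the labels give.

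Hox genes encode transcription factors that bind DNA through a homeodomain and set positional identity along the head to tail axis. Within a cluster they are ordered by paralogue number, and genes of low number are switched on earlier and reach further towards the head than genes of high number. In the early embryo, genes of low number are known to be active in second heart field progenitors of the venous pole and the outflow tract, where retinoic acid sets their limits, and in the neural crest that enters the outflow tract. The numbers are grouped here as anterior (1 to 3), central (4 to 8) and posterior (9 to 13), which gives 8, 13 and 6 genes.

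*Hoxb5* and *Hoxc5* had most of their reads in 1 library, whereas *Hoxa5* was read in each of them, and near-identical sequence could let reads of one be counted for another. The transcripts of these genes were therefore compared in GENCODE release M21. The longest run of bases that those of *Hoxa5* and *Hoxb5* share is 26, and *Hoxc5* shares at most 17 with either. Over the 25 pairs of measured Hox genes with the same number in different clusters, 72.8% to 93.9% of the bases that encode the homeodomain were identical and the longest shared run was 13 to 50 bases, the latter between *Hoxb9* and *Hoxc9*. Over the 242 pairs of unlike number in different clusters the longest run was 47 bases, between *Hoxa7* and *Hoxb4*. None of these 267 pairs shared a run as long as a read of 100 bases. However, the authors' trimming could leave shorter reads, and their alignment allowed mismatches. Whether reads were counted for another Hox gene was not tested. Within a cluster, annotated exons on the same strand overlap for *Hoxc5* (5.37% of its exon bases lie in exons of another Hox gene), *Hoxd3* (9.26%) and *Hoxd4* (13.2%), so reads there are uncertain between neighbours, and for the other 24 genes no base is shared.

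The table gives a mean normalized count for each genotype, a normalized count being the read pairs assigned to a gene after division by the library's size factor, which evens out depth. Counts of single libraries were worked out from these means, and for each of the 27 Hox genes only 1 set of whole counts gives both deposited means to the last digit. Libraries are numbered 1 to 5 within a genotype by descending size factor, which is not the replicate number of the labels. An estimated 11328000 to 14023000 read pairs were counted per library. A read pair is called a read below, and Hox genes had at most 189 reads in a library, so that counting error is large for many of them. *Nos1ap* itself had a mean of 144 ± 14.4 normalized counts in wild type and 39.8 ± 5.20 in the null (SD, n = 5 each), with 124 to 169 reads against 29 to 47. Wild-type library 3 stood apart and is given separately throughout. Among neuronal genes, 10 of the 11 with recovered counts were highest in it, their summed level was 2480 normalized counts against 435 to 540 in the other wild-type and 408 to 502 in the null libraries, and *Prph*, which encodes a neurofilament protein of peripheral neurons, had 575 reads in it against 3 to 12 elsewhere. The gene not highest there was *Hand1*, which the heart also expresses and which made up most of this sum in the other libraries. The skeletal muscle list summed to 160 in it against 11.4 to 15.5 and 13.1 to 27.9, with 6 of 7 genes highest there. Whether these genes and the Hox genes come from the same cells was not tested. In such bulk samples, fewer cells of a type and less RNA per cell cannot be told apart. Of the 10 cardiomyocyte genes on the list, all have a row, and their summed deposited means were 402900 in wild type and 410000 in the null.

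Most Hox RNA in these hearts came from paralogue numbers 1 to 5 and from the *Hoxa* and *Hoxb* clusters, and higher numbers held 4.47% of the summed Hox level in wild type and 6.35% in the null. Of the 27 genes, 10 had a mean normalized count of at least 10 over both genotypes, among them *Hoxa2* to *Hoxa5*, *Hoxb2* to *Hoxb5* and *Hoxd3*. Another 11 had a mean between 1 and 10, and 6 had a mean under 1. *Hoxb5* reached 10 only through wild-type library 3, its mean over the other 9 libraries being 2.07. Anterior genes held 58.2% of the summed Hox mean in wild type and 66.0% in the null, central genes 40.2% and 31.3%, and posterior genes 1.55% and 2.65%. By cluster, *Hoxb* held 51.0% and 42.4%, *Hoxa* 34.4% and 41.8%, *Hoxd* 9.84% and 13.5%, and *Hoxc* 4.82% and 2.34%. Without library 3 the wild-type shares were 65.7% for anterior, 32.0% for central and 2.30% for posterior genes, and 44.9% for *Hoxb*, 39.9% for *Hoxa*, 12.2% for *Hoxd* and 2.97% for *Hoxc*, nearer to those of the null for each band and cluster. No *Hoxc* gene reached a mean of 10.

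Levels were compared between genes per kilobase of merged exons. In the null libraries, which do not hold the library that stands apart, *Hoxb4* had the highest level by this length, 14.7 normalized counts per kb. Among the genes named here it was followed by *Hoxb2* with 11.1, *Hoxa4* with 9.48, *Hoxb3* with 9.38, *Hoxa5* with 8.09, *Hoxa2* with 7.45, *Hoxa3* with 7.39 and *Hoxd3* with 5.80. *Hoxb5*, which lies 12.1 kb from *Hoxb4* in the same cluster, had 0.650 per kb. Thus the level in the *Hoxb* cluster changed between numbers 4 and 5, whereas in the *Hoxa* cluster *Hoxa5* was still at the level of its neighbours and the 3 measured genes of higher number had 0.182 to 0.545 per kb. In the 4 wild-type libraries other than library 3 the level per kb was 16.2 for *Hoxb4*, 12.4 for *Hoxb2*, 10.2 for *Hoxb3*, 9.76 for *Hoxa4*, 9.02 for *Hoxa5* and 0.857 for *Hoxb5*. With library 3 included, *Hoxb5* had 11.2 per kb. *Hoxa3* and *Hoxd3* have annotated transcripts with different starts, and dividing by the longest transcript instead of the merged exons raised their wild-type level from 8.21 to 19.1 and from 6.98 to 9.86 per kb. By that length *Hoxa3* had the highest level, 17.2 per kb in the null, ahead of *Hoxb4*, so the order of levels depends on the transcript in use. In wild type with library 3 included, *Hoxb3* with 23.0 was then ahead of *Hoxb4* with 21.5. In the null *Hoxb3* stayed behind, with 12.5 against 14.7.

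**Figure D1:**
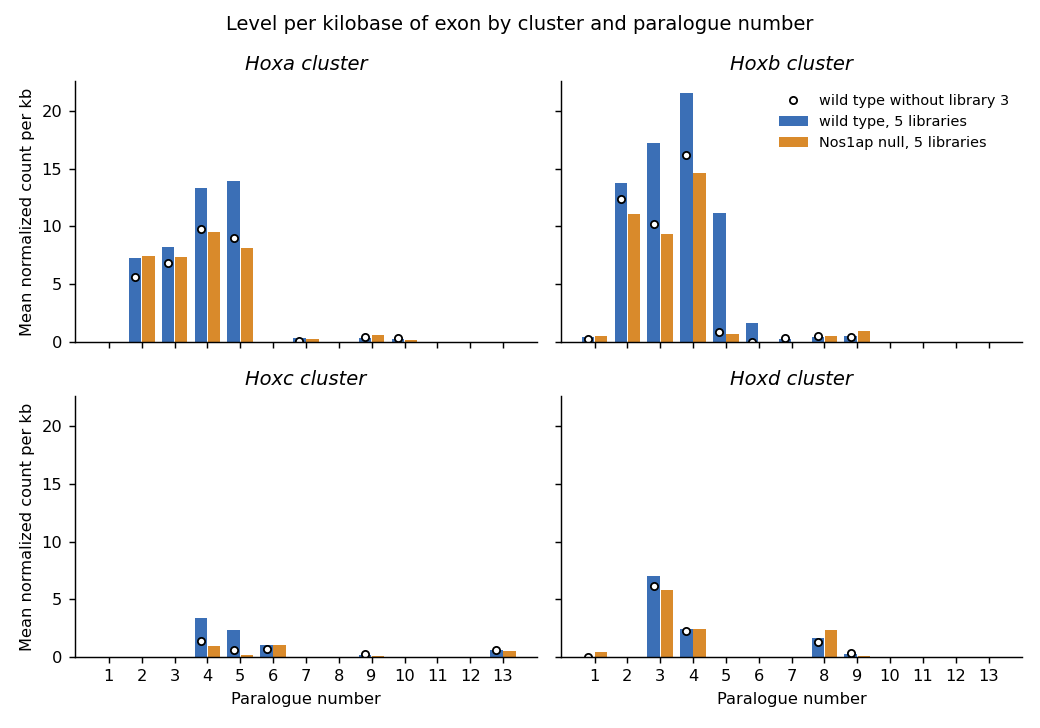
Mean normalized count per kilobase of merged exons (vertical axis) by paralogue number (horizontal axis), with a panel for each Hox cluster and 26 of the 27 genes drawn. Bars are the deposited means of 5 wild-type and 5 *Nos1ap* null libraries and open circles the mean of wild type without library 3; *Hoxb5* falls from 11.2 to 0.857 per kb when that library is left out, close to the 0.650 of the null.

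Among anterior genes, those of paralogue number 1 act in the early hindbrain and in retinoic acid responses. *Hoxb1*, which patterns the hindbrain and marks posterior second heart field progenitors, had 0 to 3 reads in a library and was absent from the reads of 3 libraries, and *Hoxd1* had 2 reads in each of 2 null libraries and 0 reads in wild type, which allows up to 3 reads over the group.

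*Hoxa2*, which patterns the second branchial arch, had 11, 10, 24, 11 and 9 reads in wild-type libraries 1 to 5 and 13, 11, 13, 18 and 10 in null libraries 1 to 5, the order kept for the genes that follow. *Hoxb2* had 48, 48, 66, 34 and 48 reads in wild type and 46, 31, 40, 42 and 32 in the null. Both were highest in wild-type library 3, and both genotypes overlapped. Their means were 12.9 ± 6.51 and 13.2 ± 3.53 for *Hoxa2* and 48.0 ± 12.0 and 38.6 ± 5.53 for *Hoxb2*.

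*Hoxa3*, which is needed for the thymus, parathyroid and carotid arteries, had 50, 33, 81, 44 and 42 reads in wild type and 62, 30, 41, 57 and 31 in the null. *Hoxb3* had 54, 35, 189, 58 and 32 reads in wild type and 57, 28, 29, 52 and 32 in the null. *Hoxd3*, known for its part in neck vertebrae, had 28, 22, 42, 19 and 37 reads in wild type and 32, 22, 25, 23 and 19 in the null. Wild-type library 3 had the highest value of each, and the genotypes overlapped for all 3 genes. The genotype means were 49.3 ± 19.3 and 44.5 ± 13.6 for *Hoxa3*, 73.2 ± 67.5 and 39.9 ± 12.9 for *Hoxb3*, and 29.3 ± 10.5 and 24.3 ± 3.12 for *Hoxd3*. For *Hoxb3* the SD over wild type is 12.7 without library 3.

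Among central genes, paralogue number 4 acts in the neck region of the axis, and *Hoxb4* is also known for blood stem cells. *Hoxa4* had 22, 5, 43, 15 and 22 reads in wild type and 20, 17, 8, 17 and 13 in the null. *Hoxb4* had 53, 40, 108, 46 and 33 reads in wild type and 54, 27, 31, 45 and 30 in the null. *Hoxc4* had 2, 4, 29, 3 and 5 reads in wild type and 1, 3, 2, 3 and 3 in the null. *Hoxd4* had 8, 10, 10, 0 and 9 reads in wild type and 9, 11, 5, 4 and 7 in the null. Wild-type library 3 was the highest of the 10 for *Hoxa4*, *Hoxb4* and *Hoxc4*, whereas for *Hoxd4* it lay among the others. The means of *Hoxb4* were 55.3 ± 31 and 37.6 ± 10.1, and those of *Hoxd4* 7.23 ± 4.22 and 7.22 ± 2.69.

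The sequence before the start of *Hoxb4* and of *Hoxc4* is shown because these 2 paralogues differed in level in the null libraries (14.7 against 0.967 normalized counts per kb) yet both were highest in wild-type library 3. The bases are the 250 before the start in RefSeq on GRCm38.p6, plus strand, 5′ to 3′, at chr11:96318017-96318266 for *Hoxb4* and chr15:103034145-103034394 for *Hoxc4*. Capitals mark matches to AGGTCA, the half-site of retinoic acid receptors, on either strand.
Hoxb4: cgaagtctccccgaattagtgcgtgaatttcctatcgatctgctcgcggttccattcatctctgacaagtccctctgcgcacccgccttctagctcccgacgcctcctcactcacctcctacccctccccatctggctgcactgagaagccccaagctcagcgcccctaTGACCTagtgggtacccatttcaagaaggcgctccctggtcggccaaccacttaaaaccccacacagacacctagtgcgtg
Hoxc4: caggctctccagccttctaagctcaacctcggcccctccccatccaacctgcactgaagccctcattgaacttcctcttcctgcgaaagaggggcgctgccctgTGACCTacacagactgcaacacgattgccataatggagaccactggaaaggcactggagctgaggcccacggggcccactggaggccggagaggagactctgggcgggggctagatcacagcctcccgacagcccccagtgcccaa

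Each sequence holds 1 match, on the minus strand. Of the 27 Hox genes, 15 have a promoter of 300 bases in the RefSeq table, and 6 of the 15 (*Hoxa5*, *Hoxb4*, *Hoxc4*, *Hoxd3*, *Hoxd4* and *Hoxd8*) hold AGGTCA on either strand, against 16.26% of 32851 promoters of all genes. The other motifs searched on both strands were TGATTNAT for PBX-HOX pairs, in 1 of the 15 genes against 3.22% of all promoters, TTTATNG for CDX factors, in 2 against 10.91%, and TATAAA, in 3 against 13.62%. A match describes these letters and is no evidence of binding.

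Paralogue number 5 had the widest spread of any number in normalized counts over the 5 wild-type libraries, with an SD of 97.8. Without library 3 its SD was 7.49, and in the null it was 6.86. Number 3 spread more in both, with 16.2 and 28.2. *Hoxa5*, which is required for lung and airway development, had 19, 7, 62, 26 and 17 reads in wild type and 20, 9, 11, 23 and 12 in the null. *Hoxb5* (chr11:96303336-96306121), known in vagal neural crest and the lung, had 4, 2, 144, 2 and 2 reads in wild type and 3, 0, 2, 1 and 3 in the null. *Hoxc5* had 1, 3, 29, 1 and 2 reads in wild type and 0, 0, 0, 1 and 1 in the null. All 3 genes were highest in wild-type library 3, which held 144 of the 163 *Hoxb5* reads. The means of *Hoxa5* were 26.2 ± 21.8 and 15.2 ± 6.27. The mean of *Hoxb5* was 31.2 ± 64.5 in wild type, 2.39 ± 0.731 in wild type without library 3 and 1.81 ± 1.30 in the null.

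At paralogue number 6, *Hoxb6* had 16 reads in wild-type library 3 and 0 in each of the other 9 libraries, where 0 reads allow up to 3 per library. *Hoxc6* had 5 reads in that library against 0 to 3 in the others. *Hoxa7* had 3 reads in it and 0 to 2 elsewhere, and *Hoxb7* had 1 read in each of 2 other wild-type libraries. *Hoxd8* was read in every library, with 4, 2, 8, 7 and 1 reads in wild type and 2, 3, 10, 11 and 5 in the null, and *Hoxb8* had 0 to 3 reads. Wild-type library 3 was within the range of the others for both number 8 genes.

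The 6 posterior genes together had 71 reads in the 10 libraries, 5 of them in wild-type library 3. *Hoxa9* had 25 reads and *Hoxb9* 18, and both were read in every library. *Hoxc13* had 14 reads, *Hoxa10* 7, *Hoxd9* 4 and *Hoxc9* 3. In the comparison of genotypes with a minimum mean of 1, given below, *Hoxa9*, *Hoxb9* and *Hoxc13* were tested and not called. *Hoxa10*, *Hoxd9* and *Hoxc9* fell below that minimum. The size of difference that such small counts could show was not worked out.

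**Figure D2:**
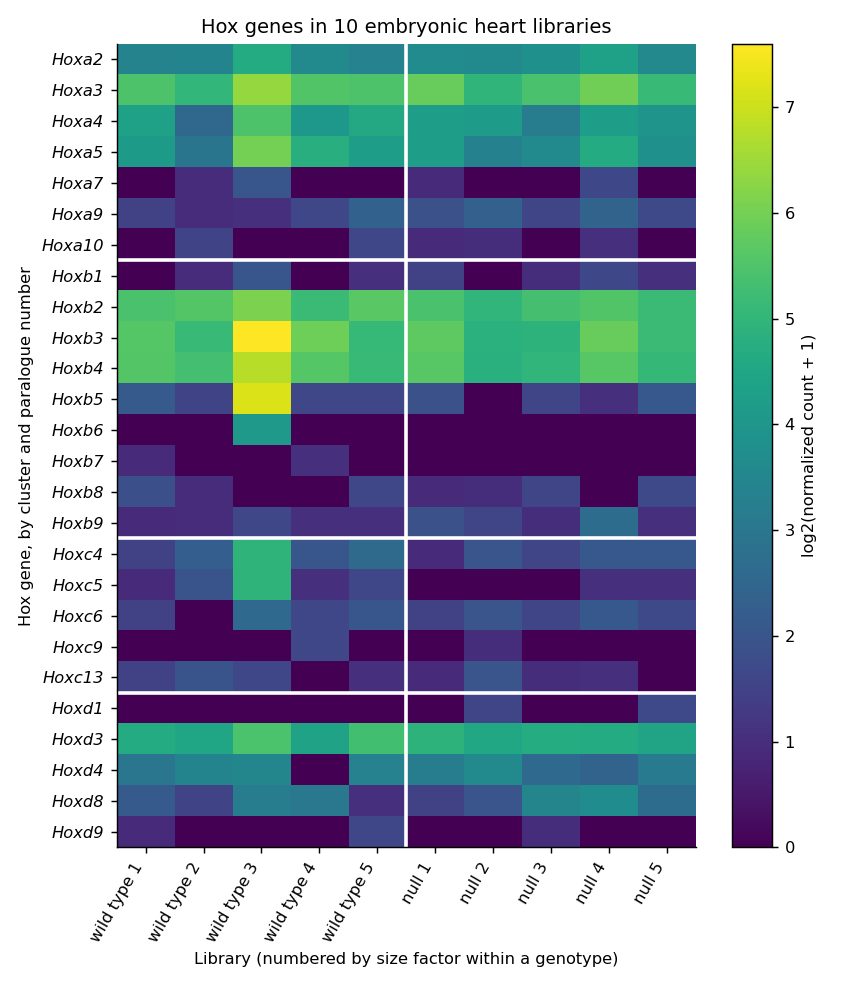
Level of Hox genes (rows, by cluster and paralogue number) in the 5 wild-type and 5 *Nos1ap* null libraries (columns), as log2 of the normalized count plus 1 on the color scale. The third wild-type column is brightest from *Hoxb3* to *Hoxb6* and at *Hoxc4* and *Hoxc5*, whereas the posterior rows do not stand out in that column; 26 of the 27 genes are drawn.

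Relative to the other wild-type libraries, library 3 was raised most at paralogue numbers 5 and 6, less at numbers 2 to 4 and not in the sum of posterior genes. Summed over the clusters, its normalized count was 1.72 times the mean of the other wild-type libraries for number 2, 2.88 times for number 3, 2.88 times for number 4, 11.4 times for number 5 and 12.4 times for number 6. Reads were few beyond number 6. For number 7 library 3 had 3.05 normalized counts from 3 reads, against at most 1.03 in the other wild-type and 2.15 in the null libraries, for number 8 it had 8.14 against 2.90 to 7.22 and 2.70 to 12.1, and for number 9 it had 3.05 against 1.94 to 7.24 and 3.27 to 9.67. In normalized counts, the excess was 38.4 for number 2, 207 for number 3, 126 for number 4, 218 for number 5 and 19.7 for number 6. Ratios of single genes were 61.4 for *Hoxb5*, 17.2 for *Hoxc5*, 8.51 for *Hoxc4*, 4.43 for *Hoxb3*, 3.73 for *Hoxa5*, 2.81 for *Hoxa4*, 2.64 for *Hoxb4*, 2.45 for *Hoxa2*, 2.01 for *Hoxa3*, 1.65 for *Hoxd3* and 1.55 for *Hoxb2*. On at most 10 reads in library 3, they were 2.95 for *Hoxc6*, 2.38 for *Hoxd8* and 1.57 for *Hoxd4*. Within numbers 3, 4 and 5, the *Hoxb* gene thus had a higher ratio than the *Hoxa* gene at 3 and 5, and at 4 the *Hoxc* gene had the highest.

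**Figure D3:**
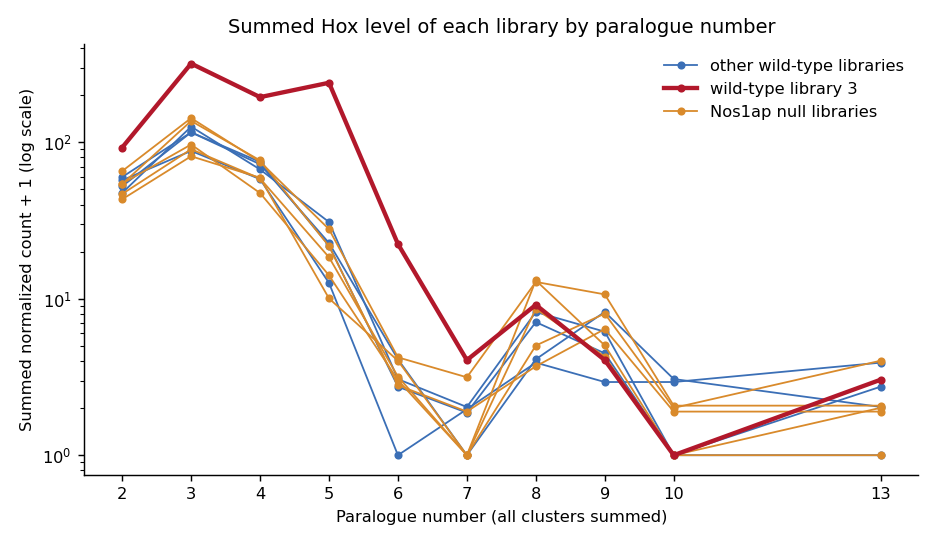
Summed normalized count plus 1 on a log scale (vertical axis) against paralogue number from 2 up (horizontal axis), with a line for each of the 10 libraries. Wild-type library 3 lies above all the others from number 2 to number 6, also at number 7 on 3 reads, and is among or below them at 8, 9, 10 and 13.

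Of the 10 Hox genes with a mean of at least 10, 9 were highest of the 10 libraries in wild-type library 3, against 15.6% of the 10255 protein-coding genes that have recovered counts and reach the same minimum. In 9 of the 10, the same genes, library 3 was at least 1.5 times the mean of the other wild-type libraries, against 5.33% of those 10255 genes. For means of 200 to 1000, counts were recovered only where the libraries of a genotype lay near equal expression. Genes such as *Nefm*, with deposited means of 311 in wild type and 17.9 in the null, are thus left out. The shares over all genes may therefore be too low. Among genes with a mean of at least 10 over the other 9 libraries, a selection added after the values were seen that leaves out *Hoxb5*, 8 of 9 Hox genes were highest in library 3 and 8 of 9 were at least 1.5 times raised, against 15.0% and 4.67% of 10191 genes. The ratio had a median of 1.01 over these genes and lay between 0.798 and 1.53 for the central 90%. Over all 27 Hox genes, 15 were highest in this library, among them 6 of 8 anterior, 9 of 13 central and 0 of 6 posterior genes. It held 25.2% of all Hox reads, 48.5% of those of the *Hoxc* cluster, 31.2% of *Hoxb*, 18.3% of *Hoxa* and 14.9% of *Hoxd*. The summed Hox level in it was 913 normalized counts, of which anterior genes made up 443 and central genes 465. The other wild-type libraries summed to 248 to 323 and the null libraries to 230 to 371. The posterior sum was 5.09 in library 3, 5.16 to 10.4 in the other wild-type libraries and 3.27 to 11.8 in the null.

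For comparison of *Nos1ap* null with wild type, log2 values of single libraries were tested with limma over these 10255 genes, with Benjamini-Hochberg adjustment. Of the 10 Hox genes tested, 0 passed an adjusted p of 0.05 in either direction, and 0 had an unadjusted p under 0.05. The background was 0.0293%, 3 of 10255 genes, and 364 of them had an unadjusted p under 0.05. The voom form of limma also called 0 Hox genes. The smallest adjusted p of a Hox gene was 0.999. The median log2 fold change of the 10 genes was −0.26, against −0.0045 for all genes tested. Of the 10, 9 were lower in the null, against 5346 of the 10255 genes. Without wild-type library 3 the Hox median was −0.11, with 7 lower, against 5079 of the 10255 genes. The genes tested in that fit were still those chosen with library 3 included. *Hoxb5*, which reached the minimum only through that library, is thus among the 10 and among the 7 lower. Without wild-type library 2 it was −0.42. No Hox gene was called in either fit.

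**Figure D4:**
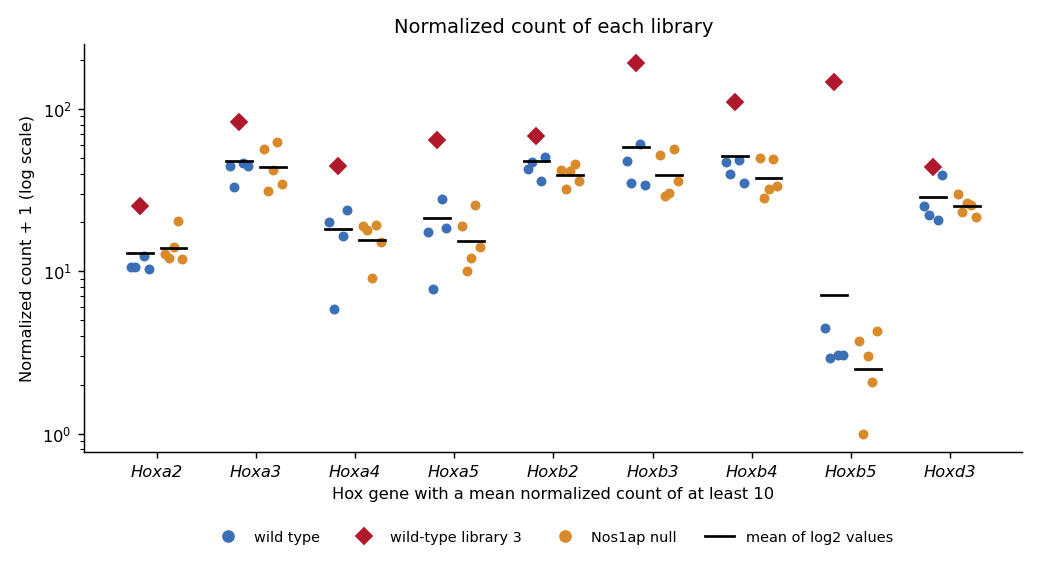
Normalized count plus 1 on a log scale (vertical axis) in each library for 9 of the 10 Hox genes with a mean of at least 10 (horizontal axis). Circles are libraries, the diamond is wild-type library 3 and the bar is the mean of the log2 values of the 5 libraries of a genotype; the genotypes overlap for each gene.

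Log2 fold changes, null against wild type on the scale of the normalized count plus 1, ran from −1.51 for *Hoxb5* to 0.10 for *Hoxa2*. *Hoxb5* had a standard error of 0.985 and a 95% interval of −3.64 to 0.63, and without wild-type library 3 its fold change was −0.41 with a standard error of 0.53. *Hoxb3* changed from −0.57 to −0.13 when that library was left out, *Hoxa5* from −0.49 to −0.09, and *Hoxb4* from −0.45 to −0.17. *Hoxa3* moved from −0.13 to 0.07 and *Hoxa4* from −0.24 to 0.09. *Hoxb2* had −0.29 with an interval of −0.64 to 0.07, and −0.16 without that library. The 6 genes with the smallest limma p were also compared by exact permutation, two-sided, with 252 arrangements of the libraries, which gave p = 0.127 for *Hoxb2*, 0.23 for *Hoxb4*, 0.198 for *Hoxb5*, 0.302 for *Hoxb3*, 0.421 for *Hoxa5* and 0.421 for *Hoxd3*, and the smallest p these arrangements allow is 0.00794. Adjusted over these 6 tests by the Benjamini-Hochberg procedure, each was 0.421. With the minimum mean lowered to 1, 21 Hox genes were tested and 0 were called, against 0.024% of 12487 genes, and 1 had an unadjusted p under 0.05. This was *Hoxc5*, with 29 of its 38 reads in wild-type library 3, and it had a log2 fold change of −1.67 with a standard error of 0.651 and a limma adjusted p of 0.997. The genotypes overlapped for all 27 genes, and of the 10 Hox genes that limma tested 0 had genotypes apart, against 0.79% of the 10255 genes.

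**Figure D5:**
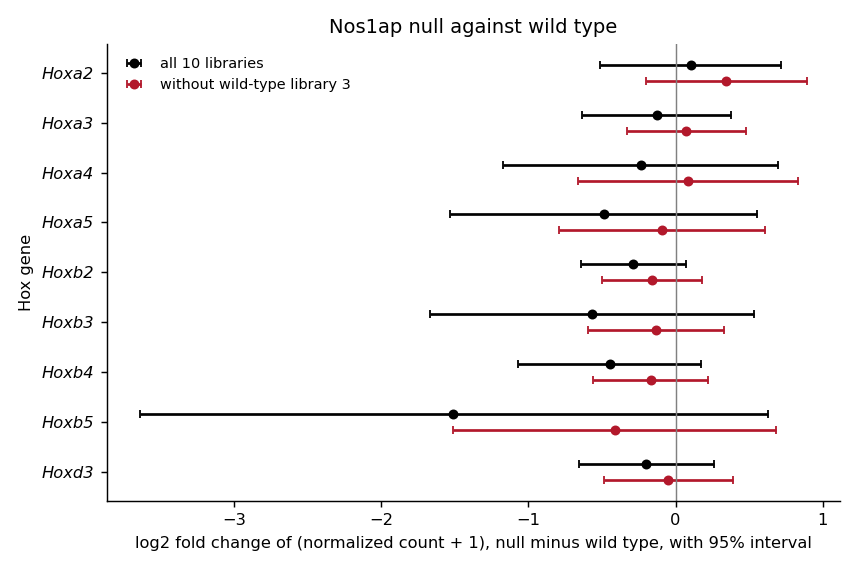
Log2 fold change of the normalized count plus 1, null minus wild type (horizontal axis), for 9 of the 10 Hox genes tested (vertical axis), as limma estimates with 95% intervals. Black is the fit on all 10 libraries and red the fit without wild-type library 3; every interval includes 0, and those of *Hoxb3* and *Hoxb5* are narrower in red.

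Outside wild-type library 3, the Hox sum still varied by 1.61 times, from 230 in null library 2 to 371 in null library 4. The SD over these 9 libraries was 46.2 around a mean of 293 normalized counts, against 17.1 from counting error alone. Anterior and central sums were both highest in null library 4, with 241 and 118, and lowest in null library 2 (145) and wild-type library 2 (72.6). In wild-type library 2, *Hoxa4* had 5 reads and *Hoxa5* had 7, below all 9 other libraries for both genes. The variance within genotypes divided by the mean, which is about 1 for counting error alone, was 3.93 for *Hoxb3*, 3.21 for *Hoxa5*, 2.83 for *Hoxa3* and 2.35 for *Hoxa4* over the 9 libraries, whereas it was 0.853 for *Hoxb2*. Other protein-coding genes with a mean of 10 to 100 over the 9 libraries had a median of 1.26 and a 95th percentile of 4.77. Of the 10 Hox genes, 0 exceeded it. With library 3 included, the 95th percentile of the same genes was 11.3, and *Hoxa5*, *Hoxb3* and *Hoxb4* exceeded it. *Hoxb5* had 126, but its mean of 2.07 over the 9 libraries lies below the range of the compared genes. It is among the 10 Hox genes only through library 3, so its high value follows from that selection.

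Noncoding genes within the clusters did not all follow their neighbours in library 3. Of 14 in the table, 3 had a mean of at least 10. *Hoxb3os*, which is transcribed antisense to *Hoxb3* and overlaps it and *Hoxb2*, had 36, 30, 33, 30 and 28 reads in wild type and 30, 38, 27, 38 and 29 in the null. Wild-type library 3 thus lay within the range of the others, whereas *Hoxb3* on the other strand had 189 reads there. The counting took strand into account. *Hotairm1* in the *Hoxa* cluster had 21, 11, 11, 13 and 13 reads and 22, 8, 9, 22 and 13. *Hoxaas2*, on the other strand from between *Hoxa2* and *Hoxa3* into the latter, had 19, 10, 22, 13 and 6 reads and 17, 8, 10, 16 and 12, highest in wild-type library 3 as its protein-coding neighbours were.

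Hox partners and retinoic acid genes were slightly raised in wild-type library 3, by 1.10 times each in their sums, and chromatin regulators were not. Of the 9 Hox cofactors listed (the PBX, MEIS and PKNOX homeodomain proteins), all have a row, with deposited means of 1540 and 1570 for *Meis2* and 1691 and 1655 for *Pbx2* in wild type and null. The 5 cofactors with recovered counts summed to 1463 in wild-type library 3 against 1284 to 1370 in the other wild-type libraries. Polycomb subunits, which keep Hox genes silent, summed to 0.999 times the other wild-type libraries there over 15 genes, and trithorax subunits, which keep them active, to 1.01 times over 6 genes. The 4 recovered of 5 measured Hox inducers summed to 1.03 times, and *Cdx2* and *Cdx4* have no row in the table analysed here. Retinoic acid enzymes and receptors summed to 2791 there over 12 genes, above the 2403 to 2591 of the other wild-type and 2334 to 2557 of the null libraries, with 6 of 12 genes highest in it. Among them *Crabp1*, a binding protein, had 140 reads in library 3 against 32 to 57 elsewhere. Of the tested members of these lists, 0 of 5 cofactors, 0 of 15 Polycomb, 0 of 6 trithorax, 0 of 3 inducer and 0 of 10 retinoic acid genes were called between the genotypes by limma, with median log2 fold changes of −0.04, −0.0054, −0.03, −0.07 and −0.07.

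Markers of other tissues that a dissected heart could carry were also read in wild-type library 3. Besides the neuronal and skeletal muscle genes above, *Sox10*, which marks neural crest and glia, had 139 reads in it against 6 to 18 elsewhere. The cardiac neural crest list, which holds *Sox10*, summed to only 1.08 times the other wild-type libraries over the 8 of its 10 genes with recovered counts. The second heart field list summed to 492 against 259 to 364 in wild type and 198 to 301 in the null, with 5 of 7 genes highest in it, and *Isl1* had 123 reads against 37 to 70. Of this sum *Osr1* made up 268, against 267 in wild-type library 1. *Mef2c*, *Tbx5* and *Hand2* of this list have no recovered counts. Foregut and lung mesenchyme summed to 157 against 72.2 to 98.3 and 80.7 to 90.9, with 4 of 8 genes highest in it. *Foxf1* and *Fgf10* are on this list and on the second heart field list, so these sums are not separate evidence. *Foxf1* had 39 reads against 1 to 14 and *Nkx6-1* 22 against 0 to 1, whereas *Tbx4* had 6 reads against 2 to 10. Lung epithelium summed to 211 against 123 to 168 and 124 to 153, with 7 of 8 genes highest in it. Of this sum *Krt8* made up 161, against 159 in wild-type library 1. The others highest in library 3 had few reads there: 2 for *Foxa1*, 4 for *Cldn6*, 5 for *Shh*, 9 for *Foxa2*, 13 for *Epcam* and 16 for *Cdh1*. Among all protein-coding genes with a mean of at least 10, 15.6% were highest in it. The defining lung markers *Nkx2-1* and *Sftpc* have no row in the table analysed here. The lists of thymus (1.16 times the other wild-type libraries), fetal liver (0.908 times), cartilage (0.995 times), endothelial (1.00 times) and epicardial genes (1.04 times) were near the other libraries. These ratios cover only genes with recovered counts. Of the genes with a row, these were 3 of 6 for cartilage, 2 of 7 for endothelial and 5 of 8 for epicardial genes. For thymus they were 5 of 5 and for fetal liver 7 of 7. The part of these tissues in the Hox values of library 3 was not tested.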

How the data were processed

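Hearts of 5 wild-type and 5 *Nos1ap* null males were grouped by the title of each sample. The authors trimmed paired-end reads of 100 bases with Trimmomatic 0.36, aligned them with STAR within RSEM 1.2.31 to GENCODE release M10 transcripts (GRCm38, strand-aware) and compared gene counts with DESeq 1.24.0. The signal values used here are the mean normalized counts per genotype in the table that the authors deposited. Its fold changes and p-values were not used.

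Whole counts of single libraries were recovered by searching for the 5 counts that give a mean to 15 digits, for 98.652% of wild-type and 98.934% of null means under 1000. In simulated means, 1770 of 1956 and 1757 of 1923 were recovered, 0 wrongly. The simulated libraries of a genotype lay near equal expression, so genes strongly raised in 1 library were not covered. Since the values are means and not counts, log2 of the normalized count plus 1 was tested with limma 3.58.1 (trend, robust) in R 4.3.3 over the 10255 protein-coding genes that reached a mean of 10. The test was run on simulated data first. Single genes had an exact permutation test. Counting intervals and limits cover counting error only.

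Named genes were every Hox gene, with counts per library at a mean of at least 10 and where a result turns on them, genes of the lists by abundance, and noncoding cluster genes with a mean of at least 10. Members and lists were chosen with earlier results of these data known, and the 1.5-fold limit for library 3 after its values were seen, as were *Prph*, *Sox10*, *Isl1*, *Foxf1*, *Nkx6-1* and *Crabp1*. A few genes within this rule, 1 of them a Hox gene, are left unreported. Alternatives changed the pseudocount, filter, scaling, gene types, tool, gene length and libraries.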

Additional observations from a re-analysis of the deposited data

Results flagged for a closer look

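Dixon's criterion for a single sample far from the others of its group was applied to 26 groups of 5 libraries (each genotype of the anterior, central and posterior sums and of the 10 Hox genes that limma tested), and chance marks about 1 in 20 groups. It marked 8 values, 7 of them in wild-type library 3. In normalized counts these 7 were 24.4 for *Hoxa2*, 82.4 for *Hoxa3*, 192 for *Hoxb3*, 110 for *Hoxb4*, 147 for *Hoxb5*, 443 for the anterior sum and 465 for the central sum. The sums hold the single genes and are not separate evidence. *Hoxb5* is among the 10 genes only through wild-type library 3, so its mark there follows from the selection. The remaining value was *Hoxa2* in null library 4, with 19.3 normalized counts from 18 reads against 10 to 13 reads in the other null libraries.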

How the results depend on the processing

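Hox genes called stayed at 0 under each alternative run, and protein-coding genes called were 3 to 4 with a library left out. The median Hox log2 fold change of −0.26 was −0.15 with no filter on low values, and −0.42 to −0.11 with a library left out, the former without wild-type library 2 and the latter without wild-type library 3. Fits with a library left out kept the same genes, *Hoxb5* among them. Signs turned for 3 genes: the fold change of *Hoxa4* ran from −0.65 without wild-type library 2 to 0.086 without wild-type library 3, that of *Hoxa3* from −0.26 to 0.072 without wild-type library 3, and that of *Hoxa2* from −0.034 (null library 4 left out) to 0.35 (wild-type library 3 left out). Dividing by the longest transcript put the wild-type level of *Hoxa3* at 19.1 and of *Hoxd3* at 9.86 per kb. The wild-type Hox sum was 298 to 465 with a library left out, the lowest without wild-type library 3, and the null sum 269 to 304. No paired analysis was possible because the group means carry no replicate numbers. The small counts of Hox genes limit what could be seen: for *Hoxb2*, one of the best measured, the 95% interval of the log2 fold change spans −0.64 to 0.07, and posterior genes had 71 reads in all.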
